A study of Homo sapiens with 6 samples.

Results

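The genes of the centromere, the kinetochore and the spindle checkpoint were compared in SNU-449, an established human hepatocellular carcinoma cell line. The list held 44 gene symbols, chosen by name but with earlier results of these data known. Of these, 43 had a probe set annotated to that gene alone, out of 19775 genes measured this way. CENPP, a subunit of the inner kinetochore, was the one symbol left out, because its probe set also names another gene. Each gene was represented by its brightest probe set.

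The arrays fell into 2 groups of 3. The empty vector arrays (genotype label Ctrl) and the arrays labelled USP48 overexpression (genotype label USP48 OE) both held total RNA of SNU-449. Per the labels, Lenti-USP48 virus was transduced at a high multiplicity with HiTransG A and stable cells were selected with puromycin, while the titles speak of transfection. How the empty vector cells were made, whether the stable cells were a clone or a pool, and whether replicates came from separate cultures are not stated, so p-values measure the spread between these arrays, which may be technical. USP48 is a ubiquitin-specific protease, and the comparison asks which transcripts differ when its overexpression is the labelled treatment.

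A centromere is marked by nucleosomes that hold the histone H3 variant CENP-A in place of H3. The constitutive centromere network sits on this chromatin through the whole cell cycle, and in mitosis it carries the outer kinetochore, whose KNL1, MIS12 and NDC80 complexes bind spindle microtubules. Kinetochores without proper attachment recruit the BUB and MAD proteins, which hold back anaphase, while Aurora B in the inner centromere destabilises wrong attachments. Many of these genes are transcribed mainly late in the cell cycle, so that their mRNA levels in a culture follow the share of cells in G2 and mitosis.

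Most of these genes were lower in the USP48-labelled arrays. Of the 43 genes, 27 fell and 1 rose at a limma adjusted p under 0.05, and 15 did not pass. Of all 19775 genes, 14.1% were lower and 15.7% higher by the same rule. The median log2 difference (USP48-labelled minus empty vector) was −0.41 for the 43 genes and 0.05 for all genes. A fall of at least 2-fold was called for 8 of the 43 genes, and for 1.91% of all genes. All 3 USP48-labelled arrays lay below all 3 empty vector arrays for 30 of the 43 genes, against 19.1% of all genes.

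The falls were unequal within the list, and 5 of 10 assemblies held both genes that fell and genes that did not pass. The 15 genes that did not pass had differences from −0.41 to 0.30, 6 of them below 0 and 9 above. The most negative differences were those of CENPF at −2.08, KNL1 at −1.98, CENPE at −1.50, SPC25 at −1.30 and SKA2 at −1.27. SGO2 of the inner centromere followed at −1.24.

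**Figure D1:**
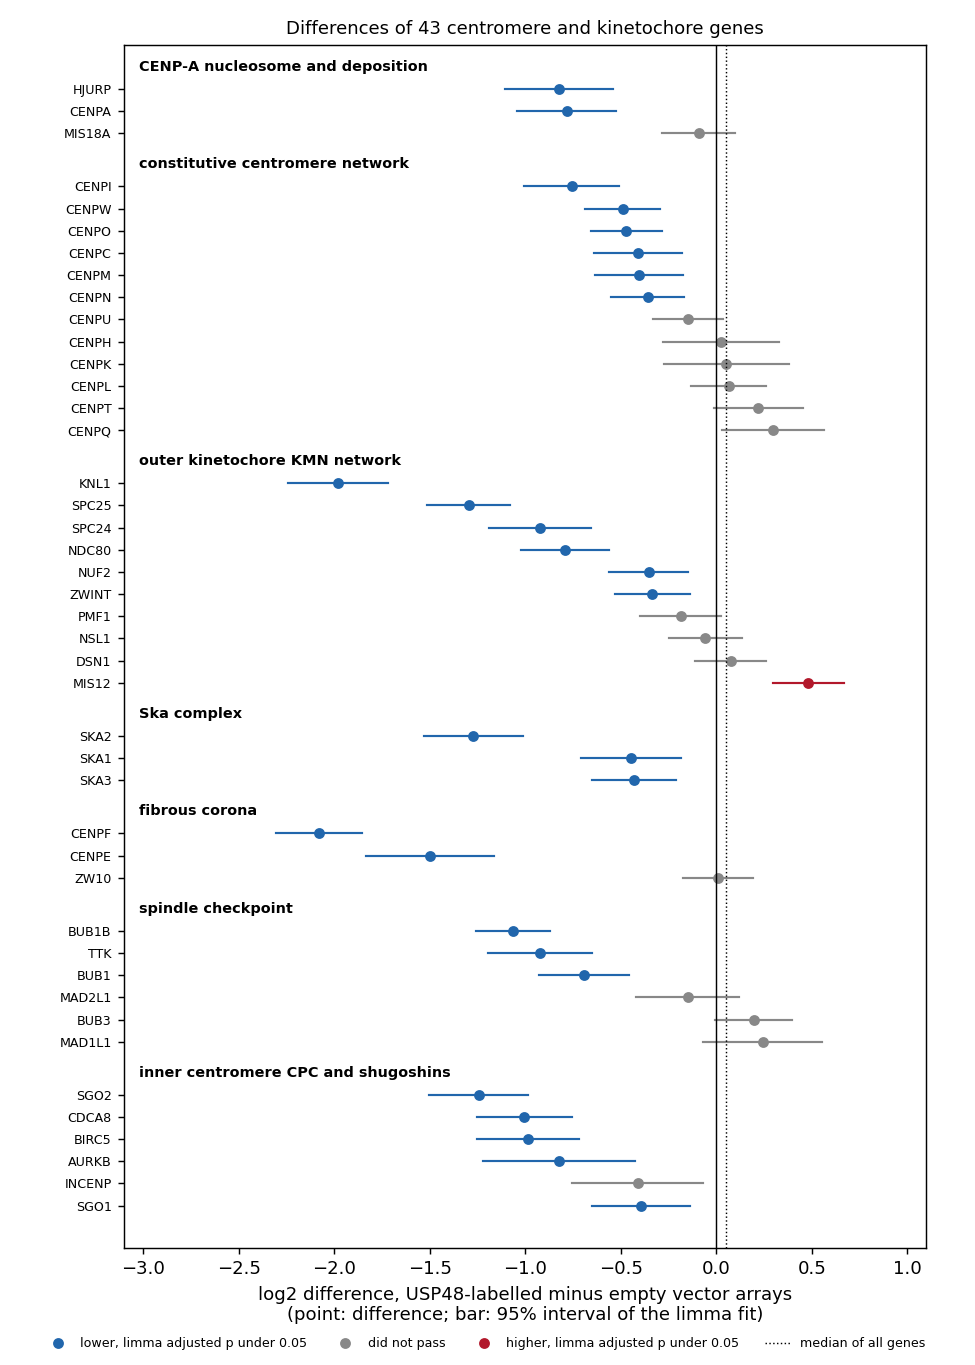
Each point is the log2 difference of one gene (USP48-labelled minus empty vector arrays, x axis) with the 95% interval of the limma fit as a bar, grouped by role on the y axis; blue genes fell, the red gene rose and grey genes did not pass. The points run from −2.08 for CENPF to 0.48 for MIS12, and the dotted line marks the median of all genes at 0.05.

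These values need to be read with several measures of the arrays. None of the 5 USP48 probe sets was called higher in the USP48-labelled arrays, and 2 of them were lower (−0.63 and −0.82), so the groups are named by their labels. The 18 hybridization control probe sets averaged 9.79 ± 0.04 with empty vector and 10.09 ± 0.10 in the USP48-labelled group (SD, 3 arrays each). Scaling the arrays on them shifts every difference by −0.29: 33 of the 43 genes were then lower and 0 higher by limma, with a median of −0.71, while 7495 of all genes were lower. The distance between the median of the 43 genes and that of all genes was −0.46 with and without that scaling. It could not differ, since the scaling shifts every gene alike. The 5′ minus 3′ difference of GAPDH, a measure of RNA integrity, ran from −0.44 to −0.32 in the empty vector arrays, and from −0.51 to −0.45 in USP48 overexpression replicates 1 and 2, but was −1.31 in replicate 3. The same difference of ACTB averaged −3.46 ± 0.22 with empty vector and −3.82 ± 0.35 in the USP48-labelled group, lowest in USP48 overexpression replicate 3 at −4.14. The 24 poly-A control probe sets averaged 5.13 ± 0.13 with empty vector and 5.55 ± 0.24 in the USP48-labelled group. Without USP48 overexpression replicate 3, 27 of the 43 genes were lower and 2 higher, with a median of −0.46. In these bulk samples fewer cycling cells and less RNA per cell cannot be told apart. Of 8 liver markers measured, 0 were called. KRT18 was at 11.79 and 11.80 and KRT8 at 10.88 and 10.57 (means of the empty vector and the USP48-labelled arrays). But ALB was at 2.07 and 2.14, AFP at 3.75 and 3.96 and TTR at 5.11 and 5.31, with array medians from 3.75 to 3.79. APOA1 was at 3.06 and 3.05, SERPINA1 at 3.41 and 3.64 and GPC3 at 3.39 and 3.59. Of 5 leukocyte markers, 1 was called higher, CD2 at 0.29 (limma adjusted p = 0.036), and PTPRC was at 1.96 and 1.88. Of 4 mesenchymal markers, FN1 rose by 1.48 (limma adjusted p = 0.00073), CDH2 and VIM fell by 0.65 and 0.42 in log2 units, and SPARC did not pass. The part of these markers in the differences of the 43 genes was not tested.

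Promoters are shown for 4 of the genes that fell most, because they moved together and late cell cycle genes often share a short element near their start. The element is the cell cycle genes homology region (searched as TTTGAA), bound by repressor complexes in resting cells and by activators in G2. It is often preceded by CCAAT boxes, bound by NF-Y. Searched with them were the E2F site forms TTTGGCG and TTTCCCG, all on both strands. The windows hold 250 bases before to 50 bases after each gene's start in the RefSeq annotation of GRCh38.p14, printed 5′ to 3′ on the gene's own strand, and capitals mark every match of these motifs. KNL1 is not in the promoter table. BUB1B and CDCA8 were added after their matches were seen.
CENPF promoter (chr1:214602945-214603244, plus strand): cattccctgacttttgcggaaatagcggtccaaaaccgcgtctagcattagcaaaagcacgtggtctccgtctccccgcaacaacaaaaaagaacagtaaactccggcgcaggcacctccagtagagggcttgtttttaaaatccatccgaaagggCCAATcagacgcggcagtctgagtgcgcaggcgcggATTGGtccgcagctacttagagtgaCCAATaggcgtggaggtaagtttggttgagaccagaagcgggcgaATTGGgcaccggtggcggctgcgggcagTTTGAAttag
CENPE promoter (chr4:103198294-103198593, minus strand): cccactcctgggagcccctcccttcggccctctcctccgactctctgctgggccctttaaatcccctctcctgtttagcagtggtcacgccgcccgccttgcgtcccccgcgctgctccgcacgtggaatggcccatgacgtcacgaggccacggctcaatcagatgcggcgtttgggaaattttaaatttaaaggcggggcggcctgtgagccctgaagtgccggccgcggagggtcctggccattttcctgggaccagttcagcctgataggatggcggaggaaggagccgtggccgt
SPC25 promoter (chr2:168890381-168890680, minus strand): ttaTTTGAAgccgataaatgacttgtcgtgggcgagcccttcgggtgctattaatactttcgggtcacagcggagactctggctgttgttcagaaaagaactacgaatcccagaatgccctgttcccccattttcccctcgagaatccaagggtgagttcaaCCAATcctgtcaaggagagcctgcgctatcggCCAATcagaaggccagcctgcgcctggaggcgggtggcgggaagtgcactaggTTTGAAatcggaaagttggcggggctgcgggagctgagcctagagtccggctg
SKA2 promoter (chr17:59155137-59155436, minus strand): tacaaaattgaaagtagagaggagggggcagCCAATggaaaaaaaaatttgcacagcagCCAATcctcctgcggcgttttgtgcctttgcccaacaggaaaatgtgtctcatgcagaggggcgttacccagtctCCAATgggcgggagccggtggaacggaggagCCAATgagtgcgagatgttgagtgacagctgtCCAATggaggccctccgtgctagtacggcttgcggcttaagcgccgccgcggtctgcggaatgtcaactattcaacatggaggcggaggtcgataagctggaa
BUB1B promoter (chr15:40160819-40161118, plus strand): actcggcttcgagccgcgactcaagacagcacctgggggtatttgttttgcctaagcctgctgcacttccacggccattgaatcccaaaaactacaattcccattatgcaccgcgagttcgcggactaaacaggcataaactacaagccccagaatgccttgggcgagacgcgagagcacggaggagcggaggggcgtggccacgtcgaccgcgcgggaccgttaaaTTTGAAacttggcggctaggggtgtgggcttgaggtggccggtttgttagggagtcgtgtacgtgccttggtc
CDCA8 promoter (chr1:37692266-37692565, plus strand): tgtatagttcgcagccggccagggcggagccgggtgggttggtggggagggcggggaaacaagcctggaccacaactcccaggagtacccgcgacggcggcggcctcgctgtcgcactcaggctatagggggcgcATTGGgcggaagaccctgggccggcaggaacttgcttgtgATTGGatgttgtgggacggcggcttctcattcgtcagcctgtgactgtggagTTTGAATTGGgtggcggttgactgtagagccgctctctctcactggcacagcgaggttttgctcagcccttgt

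The windows differ in what they hold. In BUB1B and in CDCA8 TTTGAA begins at the same place, 23 bases before the start. In CDCA8 a CCAAT box on the other strand overlaps the end of TTTGAA and begins 18 bases before the start. In SPC25 one TTTGAA begins 3 bases before the start and another 247 bases before it, with CCAAT boxes 88 and 56 bases before the start. In CENPF TTTGAA begins 41 bases after the start, and 4 CCAAT boxes lie between 94 bases before and 13 bases after it. SKA2 holds 5 CCAAT boxes and no TTTGAA, and in CENPE these letters are not in the window.

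Of the 43 genes, 35 were matched by symbol to 39 windows, since 4 of them have several starts. TTTGAA was in 15 of 26 windows of genes that fell (57.7%), in 3 of 13 windows of the other genes (23.1%) and in 15.2% of all 35116 windows. It began within 50 bases of the start in 13 of the 26 windows of genes that fell, in 2 of the 13 others (15.4%) and in 4.62% of all windows. CCAAT was equally frequent in both sets, in 18 of 26 and 9 of 13 windows (69.2% each), against 34.6% of all. TTTGGCG was in 1 of the 39 windows and 1.92% of all windows, and TTTCCCG in 1 of 26 windows of genes that fell (3.85%), in 3 of 13 of the others (23.1%) and in 4.29% of all. These are counts of letters, not of bound sites, and the shares were not tested.

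At the centromeric nucleosome, CENPA and its chaperone HJURP fell, and MIS18A, part of the complex that licenses CENP-A loading, did not pass. CENPA, the histone variant itself, was at 6.55, 6.61 and 6.38 with empty vector and at 5.55, 5.97 and 5.67 in the USP48-labelled arrays. The groups did not overlap, and the log2 difference was −0.78 (SE 0.12, limma adjusted p = 0.00056). HJURP, which deposits CENP-A, was at 7.22, 7.26 and 6.96 against 6.39, 6.52 and 6.06, again without overlap, with a difference of −0.82 (SE 0.13, limma adjusted p = 0.00070). MIS18A was at −0.09 (95% interval −0.28 to 0.10, limma adjusted p = 0.46), and its other 2 probe sets were at −0.08 and −0.26.

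In the constitutive centromere network 6 of 12 genes fell and 0 rose, with a median of −0.25, the smallest in size of the 7 role groups. CENPI had the most negative difference. It was at 5.72, 5.37 and 5.45 with empty vector and at 4.76, 4.89 and 4.62 in the USP48-labelled arrays, a difference of −0.76 (SE 0.11, limma adjusted p = 0.00051). CENPW, a histone fold protein that pairs with CENP-T on DNA, was at 9.31, 9.36 and 9.14 against 8.76, 8.76 and 8.82, a difference of −0.49 (SE 0.09, limma adjusted p = 0.0018). Neither gene's groups overlapped. CENPO fell by 0.47, CENPM and CENPC, the latter a direct reader of the CENP-A nucleosome, by 0.41 each, and CENPN, which also contacts CENP-A, by 0.36 in log2 units. CENPC lost its call without empty vector replicate 2 (limma adjusted p = 0.058), and CENPM without that array (limma adjusted p = 0.060) or USP48 overexpression replicate 1 (limma adjusted p = 0.055).

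By brightest probe set, the network's stable sub-assemblies were split, each holding genes that fell and genes that did not pass. In the CENP-H/I/K/M assembly CENPI and CENPM fell, while CENPH was at 0.03 (95% interval −0.28 to 0.33) and CENPK at 0.05 (−0.27 to 0.38). In the CENP-L/N pair CENPN fell and CENPL was at 0.06 (−0.13 to 0.26). In the CENP-T/W pair CENPW fell and CENPT, which reaches out to the NDC80 complex, was at 0.22 (−0.01 to 0.45). In the CENP-O/Q/U group CENPO fell, CENPU was at −0.15 (−0.33 to 0.03) and CENPQ at 0.30 (0.03 to 0.57, limma adjusted p = 0.092). The other CENPO probe set, nearly as bright, was at −0.06 (limma adjusted p = 0.69 over all probe sets). With the mean of both, CENPO was still called lower (−0.27, limma adjusted p = 0.026). CENPU was called lower with the mean of its 3 probe sets (−0.29, limma adjusted p = 0.028). The calls of CENPO and CENPU thus depended on the probe sets used. CENPQ was called higher without USP48 overexpression replicate 3, the array with the lowest 5′ to 3′ difference of GAPDH (0.39, limma adjusted p = 0.042).

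The difference between partners within an array is not changed by adding a constant to that array. Set to 0 for the empty vector mean, CENPN minus CENPL was at 0.03, 0.07 and −0.10 with empty vector and at −0.53, −0.46 and −0.28 in the USP48-labelled arrays. CENPW minus CENPT was at −0.12, 0.08 and 0.04 against −0.64, −0.69 and −0.80. These pairs were chosen because one partner had fallen and the other had not passed, so the values are a description with no test.

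**Figure D2:**
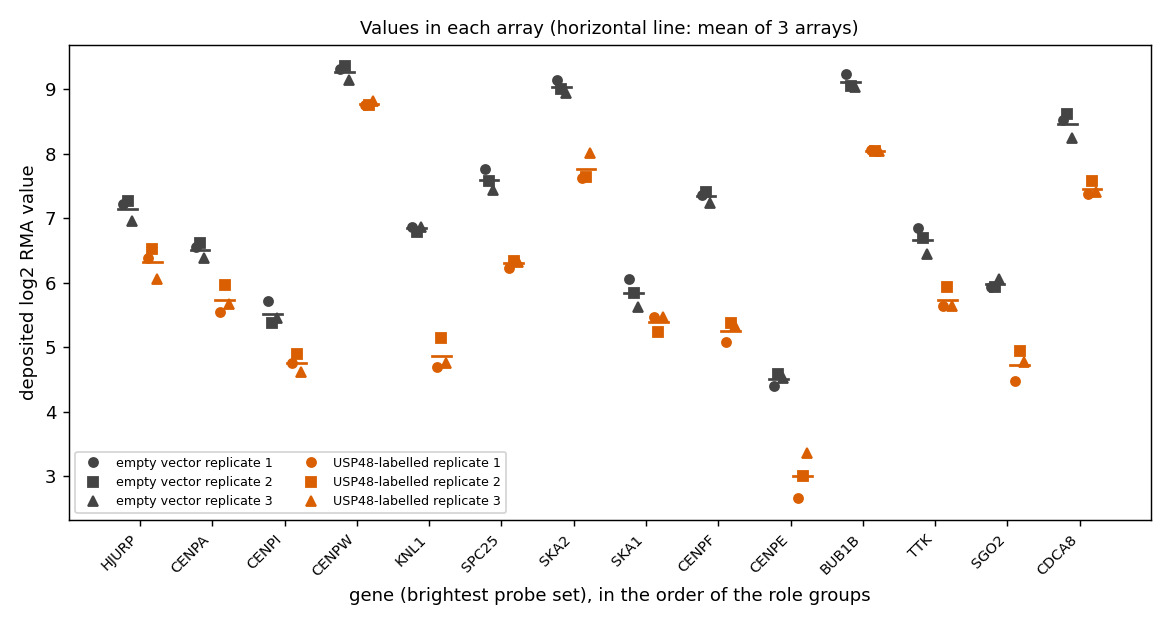
Deposited log2 values (y axis) of 14 genes, those with the largest changes of each role group, in the 3 empty vector arrays (grey) and the 3 USP48-labelled arrays (orange), with a marker shape per replicate and a line at each mean. No USP48-labelled array reaches the empty vector arrays for any of these genes, and CENPE has the widest spread in the USP48-labelled arrays, from 2.66 to 3.35.

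In the outer kinetochore every gene of the NDC80 and KNL1 complexes fell, and none of the MIS12 complex did. Of the 10 genes of the KNL1, MIS12 and NDC80 complexes, 6 fell and 1 rose, with a median of −0.34. All 4 subunits of the NDC80 complex, the main microtubule coupler, fell. SPC25 was at 7.76, 7.58 and 7.44 with empty vector and at 6.23, 6.34 and 6.33 in the USP48-labelled arrays, a difference of −1.30 (2.46-fold lower, SE 0.10, limma adjusted p = 6.4e-06). SPC24, its partner in the inner end of the rod, fell by 0.92 in log2 units (limma adjusted p = 0.00022). The other, dimmer probe set of SPC24 was at 0.01 (limma adjusted p = 0.97 over all probe sets). NDC80 and NUF2, which carry the microtubule-binding heads, fell by 0.79 and 0.35. NUF2 did not pass without empty vector replicate 1 (limma adjusted p = 0.064).

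KNL1, the scaffold that docks BUB1 and BUB3 at the kinetochore, was at 6.87, 6.79 and 6.87 in the empty vector arrays. In the USP48-labelled arrays it was at 4.69, 5.15 and 4.75, so the groups lay far apart. The difference was −1.98 (3.94-fold lower, SE 0.12, limma adjusted p = 1.6e-06). Of its 3 other probe sets, 2 fell (−1.61 and −0.62) and the dimmest was at −0.28. Its partner ZWINT was among the brightest genes and fell by 0.33 in log2 units (limma adjusted p = 0.015). ZWINT lost its call when USP48 overexpression replicate 1 (limma adjusted p = 0.052), empty vector replicate 1 (0.051) or empty vector replicate 2 (0.054) was left out.

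The MIS12 complex, which bridges the centromere network to KNL1 and NDC80, held no gene that fell. MIS12 itself was at 7.18, 7.16 and 7.20 with empty vector and at 7.76, 7.62 and 7.61 in the USP48-labelled arrays, a difference of 0.48 (SE 0.08, limma adjusted p = 0.0014). It was the only one of the 43 genes called higher, with the limit that scaling on the hybridization controls left it at 0.19 (limma adjusted p = 0.19). DSN1 was at 0.07 (95% interval −0.11 to 0.26), NSL1 at −0.06 (−0.25 to 0.14) and PMF1 at −0.19 (−0.40 to 0.03), and none of them passed. The mean of the NDC80 complex minus that of the MIS12 complex, set to 0 for the empty vector mean, was at 0.08, 0.01 and −0.09 in the empty vector arrays. It was at −1.01, −0.82 and −0.93 in the USP48-labelled arrays, a contrast not changed by adding a constant to an array. It was likewise chosen after its values were seen.

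**Figure D3:**
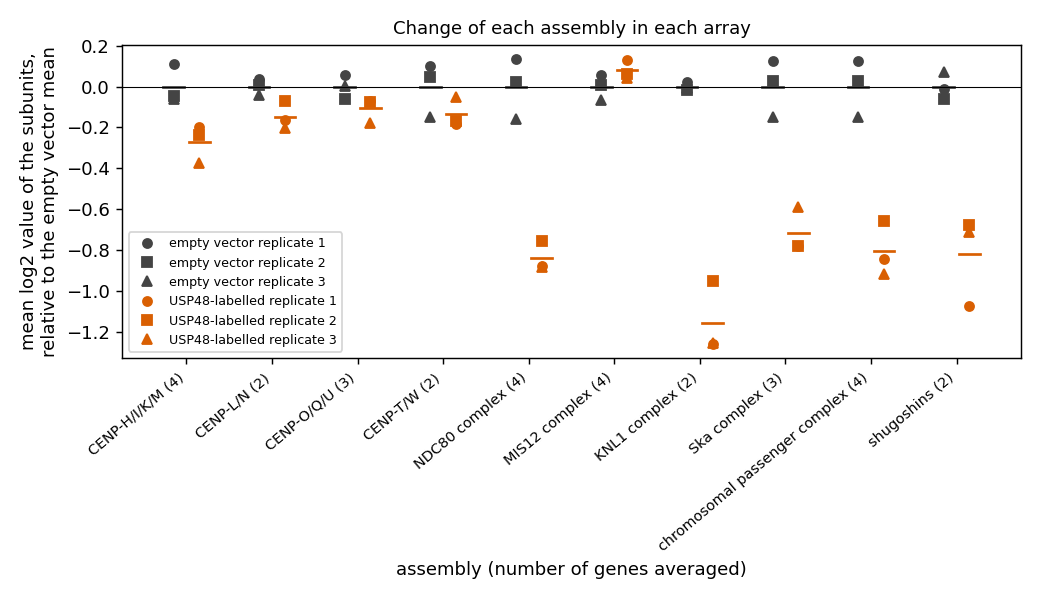
Mean log2 value of the genes of each assembly (x axis, with the number of genes averaged) in each array, relative to the empty vector mean (y axis); grey markers are empty vector arrays, orange markers USP48-labelled arrays and lines the means of 3 arrays. The NDC80 complex is at −0.84 and the KNL1 complex at −1.16 in the USP48-labelled arrays, while the MIS12 complex is at 0.08.

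The Ska complex, which tracks depolymerising microtubule ends, fell in all 3 genes. SKA2 was at 9.15, 9.003 and 8.94 with empty vector and at 7.63, 7.64 and 8.01 in the USP48-labelled arrays, a difference of −1.27 (2.41-fold lower, SE 0.12, limma adjusted p = 2.2e-05). Its other probe set, nearly as bright, was at −0.03 (limma adjusted p = 0.84 over all probe sets), so this fall was seen by 1 of 2 probe sets. SKA1 was at 6.05, 5.84 and 5.63 against 5.47, 5.24 and 5.47, a difference of −0.45 (SE 0.12, limma adjusted p = 0.016). SKA1 lost its call when USP48 overexpression replicate 2 (limma adjusted p = 0.060), empty vector replicate 1 (0.067) or empty vector replicate 2 (0.050) was left out. SKA3 fell by 0.43 in log2 units (limma adjusted p = 0.0078).

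The fibrous corona, the outermost layer of unattached kinetochores, held the gene with the largest fall. CENPF, a large coiled-coil protein of G2 and mitosis, was at 7.37, 7.41 and 7.24 with empty vector and at 5.08, 5.37 and 5.32 in the USP48-labelled arrays. Its difference of −2.08 (4.22-fold lower, SE 0.10, limma adjusted p = 4.7e-07) ranked 18 from the lowest of all 19775 genes. Another CENPF probe set fell by 1.68, and the dimmest was at −0.31 (limma adjusted p = 0.067 over all probe sets). CENPE, the kinesin that carries chromosomes to the spindle equator, was at 4.39, 4.59 and 4.52 against 2.66, 2.99 and 3.35. The difference was −1.50 (SE 0.15, limma adjusted p = 3.9e-05), and its USP48-labelled mean was the one mean of the 43 genes below the median of every array, so no fold is given. ZW10, which recruits dynein to kinetochores and also acts in membrane traffic outside mitosis, was at 0.01 (95% interval −0.17 to 0.19).

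Of the 6 spindle checkpoint genes 3 fell with their brightest probe sets: BUB1B, TTK and BUB1. Calls of BUB1, BUB3 and MAD2L1 depended on the probe sets used. BUB1B, which encodes the checkpoint inhibitor BUBR1, was at 9.24, 9.05 and 9.04 with empty vector and at 8.05, 8.05 and 8.04 in the USP48-labelled arrays. The groups did not overlap, with a difference of −1.06 (2.09-fold lower, SE 0.09, limma adjusted p = 1.0e-05). TTK, the kinase MPS1 that starts the signal, was at 6.85, 6.70 and 6.44 against 5.64, 5.94 and 5.64, a difference of −0.92 (SE 0.12, limma adjusted p = 0.00026). BUB1 fell by 0.69 in log2 units (limma adjusted p = 0.00063).

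BUB3, MAD1L1 and MAD2L1 did not pass with their brightest probe sets. MAD1L1 was at 0.24 (95% interval −0.07 to 0.56) and its binding partner MAD2L1 at −0.15 (−0.42 to 0.12). BUB3, which also acts in transcription and splicing in interphase, was at 0.20 (limma adjusted p = 0.13). For BUB3 the probe sets were at odds: the next 3 in brightness fell, by 0.42, 0.53 and 0.70 in log2 units (limma adjusted p = 0.0097, 0.0016 and 0.00075 over all probe sets). With the mean of all its probe sets BUB3 was called lower, at −0.26 (limma adjusted p = 0.026), so its direction rests on the choice of probe set. MAD2L1 was likewise called lower with the mean of its 3 probe sets (−0.54, limma adjusted p = 0.017). BUB1 had 4 dimmer probe sets that were not called lower, 1 of them higher (0.50). With the mean of all 5 BUB1 did not pass (−0.14, limma adjusted p = 0.20). The empty vector means of these 4 were 4.02, 3.44, 1.91 and 1.81, against 7.68 for the brightest. Array medians ran from 3.75 to 3.79. The one called higher was at 1.91 and 2.41 (means of the 2 groups), below every array median. The dimmest was at −0.33 without overlap but did not pass (limma adjusted p = 0.053 over all probe sets).

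In the inner centromere 5 of 6 genes fell, with a median of −0.91. The chromosomal passenger complex holds the kinase Aurora B and 3 proteins that place it. CDCA8, which encodes borealin, was at 8.53, 8.62 and 8.24 with empty vector and at 7.38, 7.58 and 7.40 in the USP48-labelled arrays, a difference of −1.01 (2.01-fold lower, SE 0.11, limma adjusted p = 8.0e-05). BIRC5, which encodes survivin, fell by 0.99 in log2 units, and all 4 of its probe sets fell. AURKB fell by 0.82 (SE 0.18, limma adjusted p = 0.0054), with the widest spread of the 43 genes in the USP48-labelled arrays, at 6.07, 6.51 and 5.72. INCENP, the scaffold of the complex, was at −0.41 and did not pass (95% interval −0.76 to −0.07, limma adjusted p = 0.071), and its groups overlapped. It passed after scaling on the hybridization controls (limma adjusted p = 0.0043) and without empty vector replicate 2 (0.013). It also passed with the replicate block (0.047), with the dimmest genes left out (0.044) and with an intensity trend (0.049).

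The shugoshins protect centromeric cohesin from removal until anaphase. SGO2 was at 5.93, 5.93 and 6.05 with empty vector and at 4.48, 4.94 and 4.76 in the USP48-labelled arrays. The groups stood well apart, with a difference of −1.24 (2.37-fold lower, SE 0.12, limma adjusted p = 2.4e-05), and its other probe set fell by 1.38. SGO1 fell by 0.40 in log2 units (limma adjusted p = 0.025), a call lost when USP48 overexpression replicate 1 (limma adjusted p = 0.081), empty vector replicate 1 (0.075) or empty vector replicate 3 (0.083) was left out. Its dimmer probe set fell by 1.34.

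The choice of probe set mattered for part of the list. The 43 genes had 83 probe sets in all, and 19 genes had several. Of the 40 probe sets not chosen, 18 fell, 1 rose and 21 did not pass over all probe sets, of which 14.7% were lower. In 4 genes with several probe sets every one fell: AURKB, BIRC5, SGO1 and SGO2. For BUB3, CENPU and MAD2L1 the brightest probe set did not pass and another fell. CENPN fell with its 2 brightest probe sets, by 1.38 for the second brightest against 0.36 for the brightest. Its next probe set also fell, at −0.34 (limma adjusted p = 0.025 over all probe sets), and the dimmest, at 0.004, did not pass. SKA2, SPC24 and CENPO, with 2 probe sets each, went the other way. Their brightest probe sets fell, while the others did not pass, at −0.03, 0.01 and −0.06. With the mean of both probe sets each gene was still called lower, at −0.65, −0.46 and −0.27 (limma adjusted p = 0.00059, 0.0021 and 0.026).

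**Figure D4:**
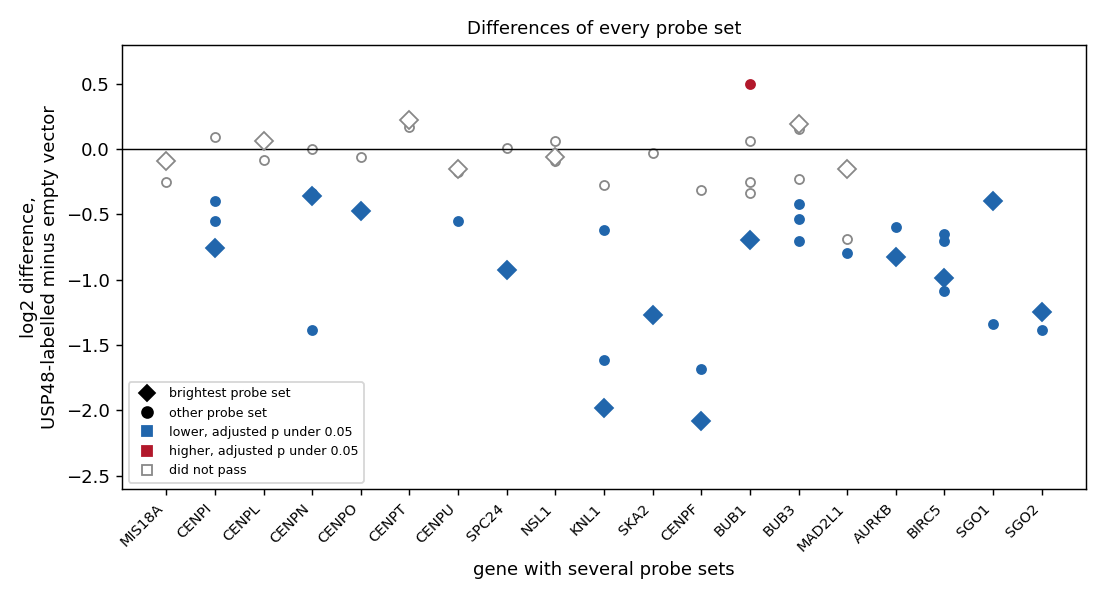
Log2 difference of every probe set (y axis) for the 19 genes with several (x axis); diamonds are the brightest probe sets and circles the others, blue probe sets fell, the red one rose and open ones did not pass over all probe sets. Genes whose probe sets disagree include SKA2 (−1.27 and −0.03), BUB3, BUB1, SPC24 and CENPO, while both SGO2 probe sets lie below −1.24.

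Other genes of the same machinery, none of them in the list of 44, were also lower in part. Of 16 further kinetochore genes measured, 10 fell and 1 rose, with a median of −0.30. PLK1, a kinase of mitotic entry and kinetochores, was at −1.01, the CENP-A loading factor OIP5 at −0.85, the microtubule depolymerase KIF2C at −0.78 and CLASP1 at −0.61. Of 20 genes of the anaphase-promoting complex and its partners, on which the checkpoint acts, 10 fell and 1 rose, with a median of −0.30. The ubiquitin-conjugating enzyme UBE2C was at −1.19, the activator CDC20 at −0.88 and the separase gene ESPL1 at −0.80, while the core subunit ANAPC10 rose by 0.96.

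Markers of cycling cells moved with the kinetochore genes. Of 10 such markers 9 fell and 0 rose, with a median of −0.66. TOP2A was at −1.89, CCNB2 and MKI67 at −1.15 and CDK1 at −0.96, and PCNA, at −0.26, did not pass (limma adjusted p = 0.054). The part of the share of cycling cells in the falls above was not tested.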

How the data were processed

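Total RNA of 6 samples was measured on Affymetrix arrays from biotinylated cRNA. Each probe set has 1 deposited log2 value per array, which the authors summarised by RMA. This comes from the submitters' processing notes, with no version given. RMA usually makes the distributions of arrays alike, which hides a change of total RNA. Here the medians ran from 3.75 to 3.79, and values below 1 are unusual for RMA, so other steps may have been used. Values ran from 0.190 to 13.2; no detection calls were used, and 3 arrays per group limit the precision.

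Of 54675 probe sets, 41091 named 1 gene in the platform annotation, 1801 several and 11721 none, and 62 were controls. Symbols of 41037 matched RefSeq (GRCh38.p14). The brightest probe set by mean over all arrays stood for each gene, with no filter. Groups, taken from the titles, were tested two-sided by lmFit and eBayes of limma 3.58.1 (R 4.3.3), with Benjamini-Hochberg adjustment over all 19775 genes and a threshold of 0.05; the fit was tested on simulated data. Figures were drawn with matplotlib 3.10.9.

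Per-array values are given for the 2 called genes of each role group with the largest differences and for any called against its group. Of each context list up to 4 called genes are named, all 8 measured liver markers are given, and PCNA was chosen after its values were seen. Members, lists and tests were chosen with earlier results of these data known.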

Additional observations from a re-analysis of the deposited data

How the results depend on the processing

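All 27 genes that fell had a negative difference under every alternative run: quantile normalization, median centring, scaling on the hybridization controls, eBayes with trend and robust settings, removal of the dimmest 33.3% of genes (which kept all 43), the mean of all probe sets, the replicate block, an adjusted p under 0.01 and each array left out. Several of these runs could not change a sign. The trend and robust settings, the removal of dim genes, the replicate block and the stricter threshold leave each difference as it was. Scaling on the hybridization controls lowers every difference. Of the 27 genes, 21 kept their call without any 1 array. Leaving out 1 array gave 23 to 27 genes lower, 1 to 2 higher, 7 to 11 lower at least 2-fold and medians from −0.48 to −0.39; over all genes it gave 2179 to 2689 lower and 2368 to 2984 higher. Scaling on the hybridization controls, which adds the same amount to every difference, gave 0 genes higher, 16 lower at least 2-fold and a median of −0.71, with 7495 of all genes lower and 957 higher. At an adjusted p under 0.01, a stricter threshold, 21 of the 43 genes were lower, and 1911 of all 19775 genes. By that threshold 1936 of all genes were higher, against 3103 in the main run. With the mean of all probe sets BUB3 turned to −0.26 (limma adjusted p = 0.026), where its dimmer probe sets enter the mean. With the replicate block 28 genes were lower and 1 higher, and of all genes 2786 were lower and 3038 higher. INCENP was the added call. Same-numbered arrays had correlations of deviations of 0.004, 0.17 and 0.01, against −0.12 to 0.11 for the other pairs. With 3 arrays per group this cannot settle whether the numbers pair the arrays. The values of CENPE are limited by its dim probe set, the only one it had. The median of the fibrous corona, of 3 genes, was −1.50, and −1.36 with the mean of all probe sets. In that run CENPF moved from −2.08 to −1.36, while CENPE stayed at −1.50.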
